A study of Mus musculus with 12 samples.

Results

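The lysosomal cathepsins are the proteases that digest proteins delivered to the lysosome. Their 10 genes Ctsa, Ctsb, Ctsc, Ctsd, Ctsf, Ctsh, Ctsk, Ctsl, Ctss and Ctsz were taken by symbol in a table of 21937 genes, and all 10 were found and passed the filter on low values. It comes from RNA sequencing of myelin, the sheath that oligodendrocytes form around axons, purified from mouse brain as a membrane fraction of low density. The mice were wild type males of the inbred strain c57Bl6/N, aged 18 days (P18), 75 days (P75), 6 months or 24 months, with 3 samples at each age and 12 in all. No animal was treated or carried a transgene according to the labels. The labels do not say whether a sample is 1 animal, so p-values reflect only how much these samples varied, which may be technical.

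Cathepsins are made as inactive precursors, tagged with mannose 6-phosphate and sorted to the lysosome, where low pH and other proteases activate them. Ctsd is an aspartic protease, Ctsa is a serine carboxypeptidase, and the other members are papain-like cysteine proteases. In the brain every cell type has lysosomes, and microglia, the resident phagocytes, are known for high levels of several members, Ctss above all. Loss of Ctsd causes a lysosomal storage disease of neurons, and no member is confined to a single cell type.

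Depth was 20299052 to 27214385 reads in genes per sample, and the weakest member, Ctsc, still had at least 70 reads in every sample. The fraction held the transcripts it was named for: 18 markers of mature oligodendrocytes summed to 1331916 to 6247586 normalised read counts per sample, most of them Mbp. The sums were 2509148 to 6247586 at P18 and lower at P75 (1331916 to 1898960), 6 months (1427894 to 2445715) and 24 months (1533752 to 2130036). At 24 months against P18, 5 of these markers were called higher and 7 lower (limma, adjusted p below 0.05). Their part in the cathepsin results was not tested. Markers of other cells were present as well. The 14 neuronal markers summed to 224266 to 279906 and the 14 astrocyte markers to 122192 to 175277. The fraction is therefore a mixture, and in it fewer cells of a type and less RNA per cell cannot be told apart. P18 replicate 3 had the lowest oligodendrocyte sum of its age, although it lay above every sample of the later ages. Results that turn on P18 replicate 3 are given without it.

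Cathepsin transcripts increased with age in 9 of the 10 genes. Together the 10 genes took 0.0671 ± 0.0043% of all reads at P18 (SD, n = 3 here and in the shares below), then 0.111 ± 0.0069% at P75, 0.161 ± 0.0151% at 6 months and finally 0.212 ± 0.027% at 24 months. The lowest single sample was P18 replicate 2 at 0.0628% (95% Wilson interval 0.0618 to 0.0638) and the highest was 24 months replicate 3 at 0.241% (0.240 to 0.243), and the samples of successive ages did not overlap. The intervals describe counting error alone, since copies made by amplification are not separate molecules.

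The comparison of the whole span, 24 months against P18, found 9 members higher and 1 lower (limma, adjusted p below 0.05). Among all 14987 genes tested 32.0% were called higher and 30.5% lower. The members' median log2 fold change was 1.60, and the median over all tested genes was -0.0050. All 3 samples at 24 months lay above all 3 at P18 for 9 members, against 33.2% of tested genes. Over the 3 consecutive steps, 8 members rose without any overlap between neighbouring ages, a pattern that 3.16% of tested genes showed. The F test over the ages called 9 members, where it called 77.4% of tested genes.

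**Figure D1:**
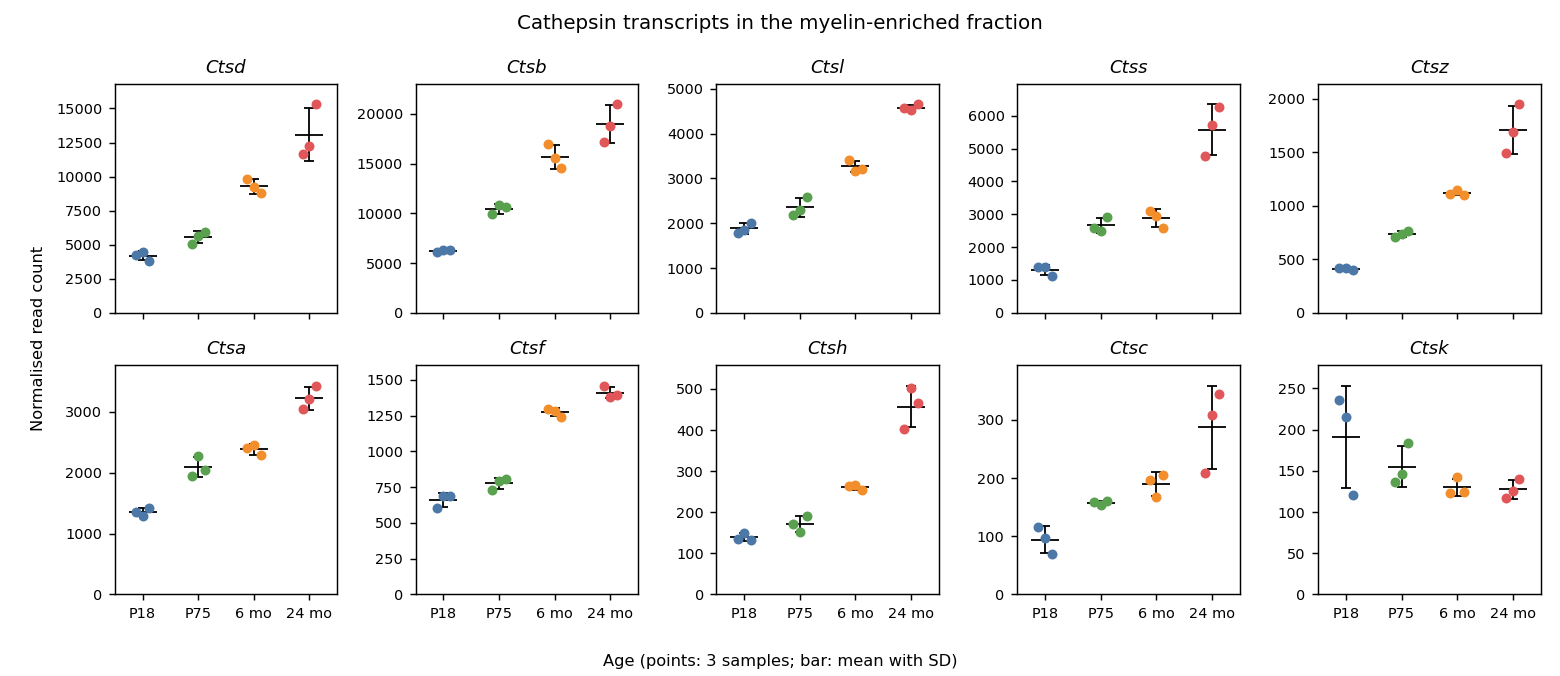
Normalised read counts (vertical axis, from 0) of the 10 cathepsin genes at 4 ages. Points are single samples and bars are the mean with SD (n = 3). Ctsk is the panel in which the samples at 24 months are not above those at P18.

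Ctsd, the main aspartic protease of the lysosome, stood highest of the members per kilobase of transcript. Its normalised read counts were 4277, 4448 and 3828 at P18, then 5065, 5638 and 5919 at P75, 9849, 9210 and 8774 at 6 months and finally 11663, 12232 and 15294 at 24 months, in replicates 1, 2 and 3. No sample overlapped with a sample of another age, and 24 months replicate 3 stood above the other samples of its age. The log2 fold change was 0.41 ± 0.11 at P75 against P18 (SE, here and below; adjusted p = 0.00728), 0.75 ± 0.11 at 6 months against P75 (adjusted p = 3.56e-05) and 0.49 ± 0.11 at 24 months against 6 months (adjusted p = 0.00772). Over the whole span Ctsd rose 3.11-fold.

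Ctsb, a cysteine protease that cuts within proteins and also trims dipeptides from their ends, had the most reads of the members. Its counts were 6075, 6326 and 6299 at P18, then 9883, 10784 and 10599 at P75, 16931, 15558 and 14508 at 6 months and finally 17156, 18803 and 20930 at 24 months. The ages did not overlap, although the highest sample at 6 months lay just under the lowest at 24 months. Ctsb rose by 0.74 ± 0.10 to P75 (adjusted p = 3.19e-05) and by 0.59 ± 0.10 to 6 months (adjusted p = 0.000142). The step to 24 months was 0.27 ± 0.10 and did not pass (adjusted p = 0.0632). Under TMM scaling (adjusted p = 0.0487), in edgeR (0.05), in DESeq2 (0.0155) and without P18 replicate 3 (0.0422) this step was called.

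Ctsl, a cysteine endopeptidase, was even between samples. It stood at 1791, 1850 and 2013 at P18, then 2177, 2305 and 2592 at P75, 3415, 3175 and 3212 at 6 months and finally 4571, 4530 and 4652 at 24 months. It rose at each step with no overlap, by 0.32 ± 0.083 (adjusted p = 0.0056), 0.47 ± 0.083 (0.000186) and 0.49 ± 0.083 (0.00174) on the log2 scale. Ctsl, Ctsd and Ctsz were the 3 members called higher at every step, which 1.23% of tested genes were.

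Ctss, a cysteine protease that stays active at neutral pH and cleaves the invariant chain of MHC class II in antigen-presenting cells, rose most over the whole span. Its counts were 1403, 1394 and 1121 at P18, then 2576, 2503 and 2924 at P75, 3105, 2963 and 2583 at 6 months and finally 4761, 5706 and 6272 at 24 months. P75 and 6 months overlapped, while P18 lay below and 24 months above all other samples. Ctss changed by 0.11 ± 0.12 from P75 to 6 months and did not pass (95% interval -0.13 to 0.36, adjusted p = 0.437). From 6 months to 24 months it rose by 0.95 ± 0.12 (adjusted p = 0.000207), and over the whole span it rose 4.26-fold.

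Ctsz, a carboxypeptidase also called cathepsin X, rose nearly as far, 4.1-fold. Its counts were 421, 417 and 402 at P18, then 708, 737 and 763 at P75, 1112, 1142 and 1101 at 6 months and finally 1494, 1687 and 1945 at 24 months. The samples of each age lay together and apart from the other ages, with a wider spread at 24 months. The steps were 0.83 ± 0.091 (adjusted p = 5.14e-06), 0.60 ± 0.091 (4.74e-05) and 0.60 ± 0.091 (0.000789).

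Ctsa, which also protects the lysosomal sialidase and beta-galactosidase in a complex, ranged from 1281 to 1417 normalised read counts at P18, then from 1948 to 2270 at P75, from 2280 to 2460 at 6 months and finally from 3040 to 3418 at 24 months. It rose to P75 (0.63 ± 0.083) and from 6 to 24 months (0.43 ± 0.083). The step between P75 and 6 months was 0.19 ± 0.083 and did not pass (adjusted p = 0.0593). TMM scaling (adjusted p = 0.0495) or leaving out P18 replicate 3 (0.0416) or P75 replicate 2 (0.0269) brought it past the threshold.

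Ctsf, a cysteine protease with a long propeptide, had its largest step between P75 and 6 months. It spanned 606 to 687 at P18, then 734 to 805 at P75, 1244 to 1300 at 6 months and finally 1382 to 1457 at 24 months. The middle step was 0.72 ± 0.080 (adjusted p = 2.94e-06). The first step, 0.24 ± 0.080, passed (adjusted p = 0.0261), but not with only the 2 ages in the fit (0.0868), without P18 replicate 1 (0.13), without P75 replicate 2 (0.0722) or without P75 replicate 3 (0.0787). The last step was 0.15 ± 0.080 and did not pass (95% interval -0.022 to 0.315).

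Ctsh, an aminopeptidase, had its largest step late. Its counts were 135, 150 and 133 at P18, then 170, 153 and 190 at P75, 265, 266 and 253 at 6 months and finally 403, 502 and 467 at 24 months. It rose by 0.61 ± 0.12 to 6 months and by 0.80 ± 0.12 to 24 months (adjusted p = 0.000613). The first step, 0.29 ± 0.12, did not pass (adjusted p = 0.0551), but did with the stricter filter (0.0485), with scaling to the total (0.0181), without P75 replicate 2 (0.0322) and without 24 months replicate 1 (0.0472).

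Ctsc, a dipeptidyl peptidase that activates the granule proteases of immune cells, was the weakest member per kilobase when all ages are averaged. It stood at 115, 97.2 and 70.3 at P18, then 159, 154 and 160 at P75, 197, 167 and 205 at 6 months and finally 208, 308 and 345 at 24 months. The ages did not overlap, but the lowest sample at 24 months lay close to the highest at 6 months. It rose by 0.77 ± 0.19 to P75. The last step, 0.57 ± 0.19, passed (adjusted p = 0.0423) but was lost in several alternatives: without filter (0.0629), with scaling to the total (0.0683), with quantile normalization (0.0545), with the replicate number as a block (0.061) and without any one of P75 replicates 1 and 2 (0.0511 and 0.0538), the 6 months replicates (0.0544 to 0.148) or replicates 2 and 3 at 24 months (0.142 and 0.158).

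Ctsk, the collagen-degrading protease of osteoclasts and fibroblasts, did not go up. Its counts were 236, 216 and 121 at P18, then 136, 146 and 184 at P75, 123, 142 and 125 at 6 months and finally 117, 125 and 140 at 24 months. P18 replicate 3 lay below the samples of P75 and 6 months and among those of 24 months. P18 replicates 1 and 2 lay above all later samples, so the range of P18 overlapped with each later age. The F test did not call Ctsk (adjusted p = 0.0743), while the single contrast of 24 months against P18 did, at -0.53 ± 0.20 (adjusted p = 0.0303). That call was lost with only the 2 ages in the fit (adjusted p = 0.0686). It was also lost when P18 replicate 1 (-0.34, adjusted p = 0.162) or 2 (-0.41, 0.123) or 24 months replicate 1 (-0.47, 0.091) or 2 (-0.52, 0.069) was left out. Without P18 replicate 3 the first step became -0.55 and passed (adjusted p = 0.00622), against -0.25 ± 0.20 with all samples. The 13 markers of mural cells and fibroblasts summed to 2240 to 2596 at P18 and 3822 to 4512 at 24 months, and 5 of them were called higher and 2 lower.

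By step, 8 members were called higher at P75 against P18 (21.7% of tested genes), 6 at 6 months against P75 (27.1%) and 7 at 24 months against 6 months (10.8%), and no member was called lower at any of these steps (18.7%, 25.4% and 8.34%). Without overlap between the 3 samples of each age, 9, 8 and 9 members were higher, against 24.7%, 31.7% and 23.2% of tested genes. The steps share the samples of the middle ages and are not independent of each other. The members' median log2 change was 0.52, 0.53 and 0.49 at the 3 steps, against 0.017, 0.0030 and 0.030 over all tested genes.

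**Figure D2:**
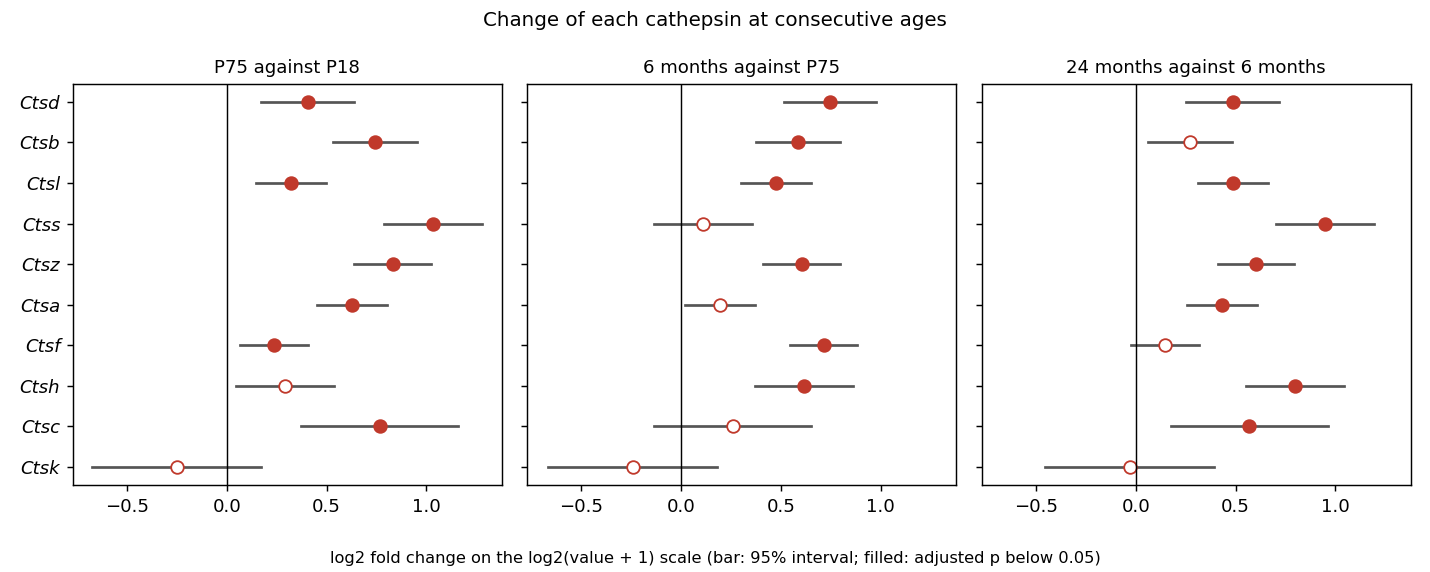
Log2 fold change of each cathepsin (horizontal axis, log2(value + 1) scale) at the 3 consecutive steps, with its 95% interval; filled points passed an adjusted p of 0.05. Ctss stood near 0 at the middle step (0.11) and near 1 at the others, whereas Ctsf had its largest value there (0.72).

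Levels can be compared between genes only per length of transcript. Divided by the shortest principal transcript in GENCODE M21, Ctsd averaged 3769 normalised read counts per kilobase over the 12 samples, Ctsb 2703, Ctss 2295, Ctsl 1534, Ctsz 690, Ctsa 620, Ctsf 521, Ctsh 159, Ctsk 99.8 and Ctsc 73.1. The place of Ctsl depends on the model, since it came seventh when the union of its exons (6168 bases against 1971) was used. Ctsd led at every age and did not overlap with the next gene. Ctsb and Ctss overlapped at P75 and at 24 months, where Ctss had the higher mean (4118 ± 563 against 3998 ± 399 per kilobase), but not at P18 (964 ± 118 against 1314 ± 29.1) or 6 months. Ctsk and Ctsh overlapped at P18 and P75, and at 6 and 24 months Ctsh lay above.

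The make-up of the cathepsin pool was counted as shares of its reads, without correction for length. Ctsb took 37.9 ± 1.11% of cathepsin reads at P18, then 41.6 ± 0.966% at P75, 42.9 ± 0.727% at 6 months and finally 38.4 ± 0.345% at 24 months. Ctss took 7.93 ± 0.845%, 10.6 ± 0.72%, 7.9 ± 0.325% and 11.3 ± 0.596% at the same ages. Ctsk went from 1.16 ± 0.362% to 0.258 ± 0.0029%, and Ctsz from 2.51 ± 0.0475% to 3.45 ± 0.111%. These shares were not tested.

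Microglial markers were higher at the later ages too, and their part in the cathepsin results was not tested. The 20 markers, none of them a member and none at 0, summed to 8539 to 10172 at P18, then 11980 to 13434 at P75, 14089 to 15681 at 6 months and finally 20652 to 25105 at 24 months. Of them 12 were called higher and 0 lower at the first step, 8 and 1 at the second, 10 and 0 at the third and 18 and 0 over the whole span, where their median was 1.13. Without P18 replicate 3 this median was 0.93, and that of the cathepsins was 1.49, against 1.60 with all samples. In 24 months replicate 3, where Ctsa, Ctsb, Ctsc, Ctsd, Ctsl, Ctss and Ctsz were highest, the microglial sum was highest as well. The 8 markers of perivascular macrophages summed to 304 to 396 at P18 and 288 to 364 at 24 months. The 11 markers of choroid plexus and ependyma, most of whose sum is Ttr, went from 19821 to 24530 at P18 to 61199 to 66918 at 24 months.

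Set against the microglial sum, the members differed. Ctss stood at 13.1 to 14.1 per 100 microglial counts at P18, then 20.7 to 21.8 at P75, 18.3 to 19.8 at 6 months and finally 23.1 to 25 at 24 months. Ctsb stood at 59.7 to 73.8, 78.9 to 90.0, 103 to 108 and 81.3 to 83.4, so its ratio peaked at 6 months and was lower at 24 months without overlap. Ctsz went from 4.13 to 4.71 at P18 to 7.23 to 7.75 at 24 months. Ctsd (42.0 to 44.9 at P18 and 52.9 to 60.9 at 24 months) and Ctsh (1.33 to 1.55 and 1.86 to 2.17) were higher without overlap. Ctsl stood at 17.6 to 23.6 at P18 and 18.5 to 22.1 at 24 months, and Ctsa at 12.9 to 16.6 and 13.6 to 14.7, and both overlapped between these ages. So did Ctsf (5.96 to 8.05 and 5.56 to 7.06) and Ctsc (0.823 to 1.133 and 1.007 to 1.375). The overlap of Ctsa came from P18 replicate 3 alone (16.6). Without that sample its highest ratio at P18 was 13.3, below all samples at 24 months, while Ctsl, Ctsf and Ctsc still overlapped. Ctsk stood at 1.41 to 2.33 at P18 and 0.542 to 0.566 at 24 months, and these ranges did not overlap.

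**Figure D3:**
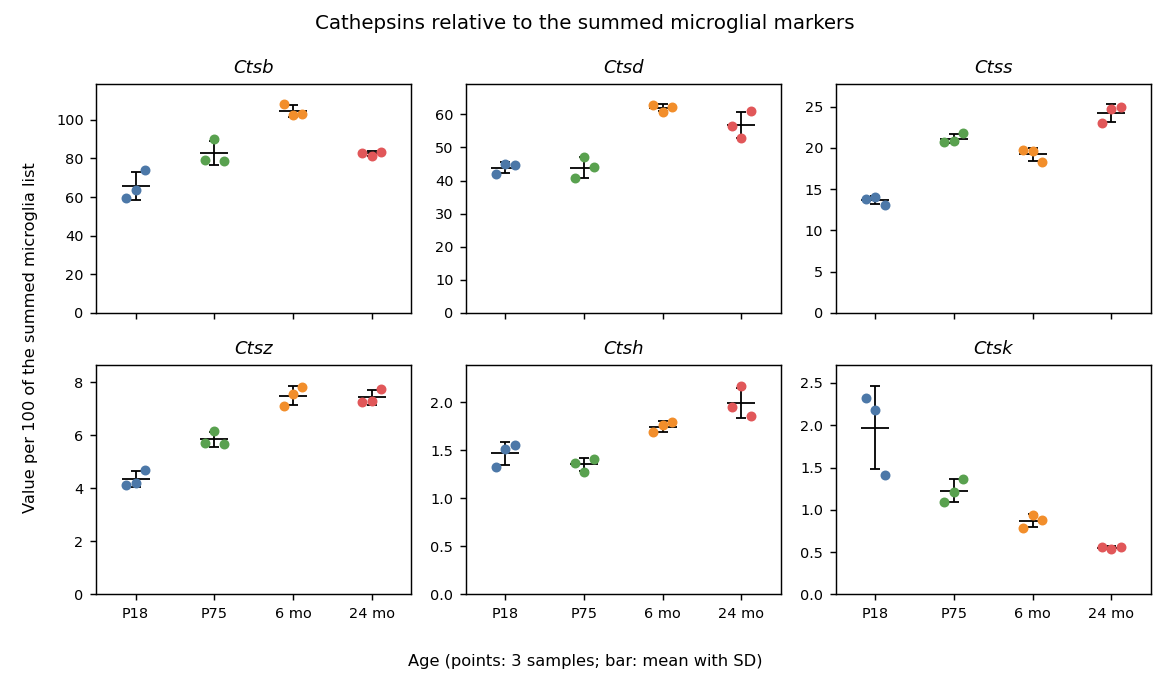
Level of 6 cathepsins per 100 normalised counts of the 20 summed microglial markers (vertical axis, from 0) at 4 ages; points are single samples and bars are the mean with SD (n = 3). The ratio of Ctss was above its P18 range at all later ages, and that of Ctsk was below it.

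Other parts of the lysosome were examined by gene lists. Of 35 tested genes for lysosomal hydrolases other than cathepsins and for related proteins, 32 were called higher at 24 months against P18 and 0 lower. Their median was 1.18. Gaa, which breaks down glycogen, rose by 2.02 on the log2 scale, Asah1, the acid ceramidase, by 1.42, Arsa, which removes the sulfate of the myelin lipid sulfatide, by 1.63 and Dpp7, a dipeptidyl peptidase, by 1.99. Of 19 lysosomal membrane proteins 19 were called higher, with a median of 1.37, among them Ostm1 (1.78), Laptm4b (1.81), Laptm4a (1.43) and Cln3 (1.54). At the last step 7 of the 35 hydrolases and related proteins and 7 of the 19 membrane proteins were called higher, against 7 of the 10 cathepsins. Of 19 markers of activated microglia, 15 were called higher at this step and 19 over the whole span, and 0 lower at either. Their medians were 1.06 and 1.88, against 0.49 and 1.60 for the cathepsins. The differences between these shares were not tested.

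Genes that carry enzymes to the lysosome were divided. Of 14 sorting genes 10 were called higher and 2 lower over the whole span, with a median of 0.70. M6pr, a mannose 6-phosphate receptor, rose by 1.75, Sort1, the sorting receptor sortilin, by 1.23, Scarb2, the receptor of glucocerebrosidase, by 1.11 and Gnptg, a subunit of the enzyme that makes the tag, by 0.91. Of 18 subunits and accessory proteins of the proton pump that acidifies the lysosome, 9 were called higher and 7 lower, with a median of 0.15, and scaling to the total left 4 lower. Atp6ap1 (1.70), Atp6ap2 (1.91), Atp6v0b (1.27) and Atp6v0a2 (0.91) were among the higher ones, and Atp6v1f (-0.71) and Atp6v1g1 (-0.59) among the lower. The proton pump also serves synaptic vesicles, so this list is not specific to lysosomes.

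Of 8 tested genes for cathepsin inhibitors and related serpins, 6 were called higher and 1 lower at 24 months against P18. Cst3, which encodes the secreted inhibitor cystatin C, took most of their summed counts and rose by 0.69. Cst7, an inhibitor made by microglia and leukocytes, had 3.01 to 5.65 counts at P18 and rose by 4.11, most of it after 6 months (3.41). Serpina3n rose by 2.31 and Serpinb1a by 2.51, the latter at the first step (2.84). Cstb, a cytosolic cystatin, fell by 0.40. Of the other 12 cathepsin genes only Ctso passed the filter, and it rose by 0.94. Ctsj, Ctsm, Ctsq, Ctsr, Cts3, Cts6 and Cts7, most of them known from placenta, had 0 reads in every sample, which allows up to 3 reads in each for counting error only, and the counting may have left out reads that fit several of these near copies.

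**Figure D4:**
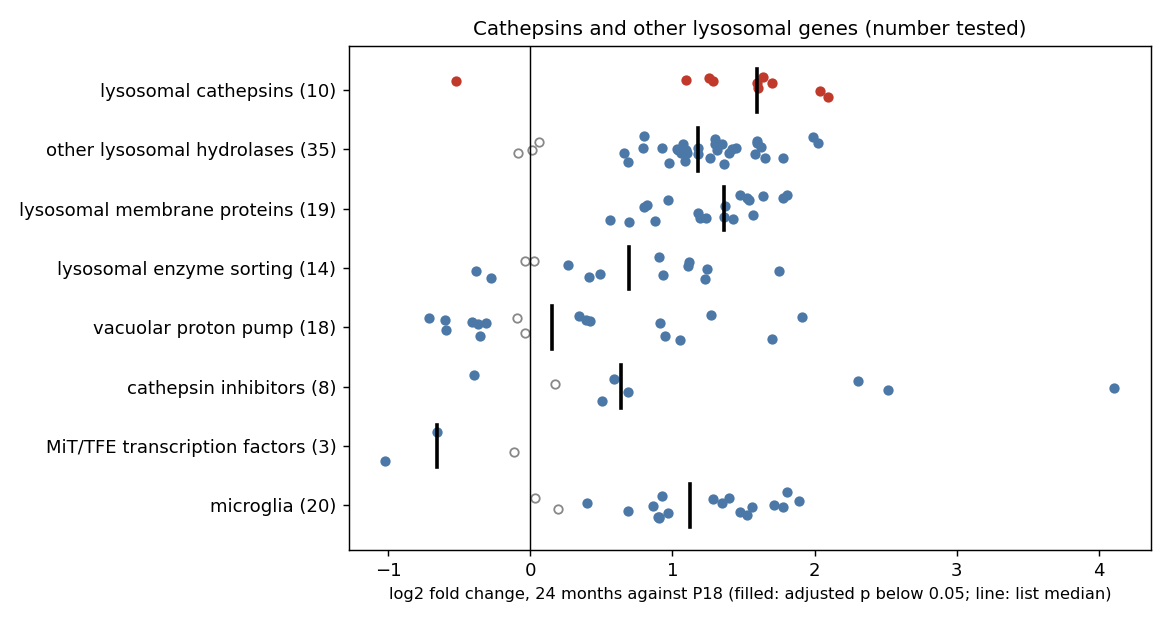
Log2 fold change at 24 months against P18 (horizontal axis) for each tested gene of 8 lists, with the number tested in brackets; filled points passed an adjusted p of 0.05 and black lines are list medians. The cathepsin median was 1.60 and that of the proton pump 0.15.

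The transcription factors TFEB and TFE3, known to switch on lysosomal genes, are listed under their older symbols. Tcfeb fell by 1.02 and Tcfe3 fell by 0.65 between P18 and 24 months, and Mitf was at -0.11 and did not pass. Without P18 replicate 3 all 3 of these genes, Mitf included, were called lower. These factors bind DNA at CACGTG, often extended to TCACGTGA. The promoters in RefSeq (GRCm38.p6), 250 bases before to 50 after a gene's start, cover 8 members: all but Ctsb and Ctsh. These 8 members have 9 promoters, since Ctsa is listed with more than 1. Members are counted below by gene, with a match in any promoter, but the shares over all are per promoter. TCACGTGA was found on either strand in 2 of these 8 genes, Ctsa and Ctsd, and in 0.974% of all 32851 promoters. The shorter CACGTG, which lies within it, was in 4 (Ctsa, Ctsd, Ctsf and Ctsl) and in 7.15% of all. TCACGTG, between them in length, was in Ctsa and Ctsd and in 3.77% of all. None of the matches of TCACGTGA in the members had both G before and C after it. This longer form was looked for at the members' matches only, so no share over all promoters is given. GAGGAAGT, a form bound by the myeloid factor PU.1, was in Ctsc and Ctss and in 3.2% of all promoters, and its core GGAA was in all 8 members with a promoter and in 96.0% of all. The motifs were picked with these promoters in view, and a match is a description of the letters, not of binding. The 60 bases around the matches show the 2 kinds of promoter, with TCACGTGA or GAGGAAGT (either strand) in capitals. They are Ctsa at chr2:164833734-164833793 (plus strand), Ctsd at chr7:142387893-142387952 (minus strand), Ctsc at chr7:88277908-88277967 (plus strand) and Ctss at chr3:95526758-95526817 (plus strand), each written 5′ to 3′.
Ctsa: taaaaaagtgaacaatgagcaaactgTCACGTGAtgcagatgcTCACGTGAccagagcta
Ctsd: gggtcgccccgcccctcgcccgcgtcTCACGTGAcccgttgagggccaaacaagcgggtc
Ctsc: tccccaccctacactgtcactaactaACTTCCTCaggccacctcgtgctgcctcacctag
Ctss: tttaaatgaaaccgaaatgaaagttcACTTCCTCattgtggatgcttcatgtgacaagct

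Ctsa carries 2 matches 17 bases apart, at the start site of its second listed promoter. Ctsa and Ctsd rose 2.39-fold and 3.11-fold over the whole span, and Ctsc and Ctss rose 3.02-fold and 4.26-fold. Ctsf, Ctsl, Ctsz and Ctsk had neither TCACGTGA nor GAGGAAGT in the promoter given. Ctsf and Ctsl, which hold the shorter CACGTG, rose 2.14-fold and 2.43-fold. The log2 changes of Ctsz and Ctsk were 2.04 ± 0.091 and -0.53 ± 0.20.

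The genes nearest to each member in their pattern over the 12 samples were found by the root mean square difference of centred log2 values, among 11596 genes with a mean of at least 50. For Ctsa they were P2rx4 (0.069), Pnpla6 (0.073) and Dhrs7b (0.083), and for Ctsb Mboat7 (0.069), Arsa (0.072) and Ext2 (0.073). For Ctsc they were Hsp90b1 (0.123), Hexa (0.147) and Ormdl1 (0.151), and for Ctsd Pros1 (0.121), Itgb5 (0.127) and Slc25a14 (0.13). For Ctsf they were Armcx6 (0.085), Lypd6b (0.093) and Slc27a1 (0.093), and for Ctsl Scpep1 (0.084), Htra1 (0.096) and Yipf5 (0.096). Ctsh lay nearest to C1qa (0.101), a complement gene of microglia, then Fxyd5 (0.11) and Adcy7 (0.172). Genes near Ctss included C1galt1c1 (0.135) and H2-K1 (0.147), and Ctsz lay nearest to Dpp7 (0.117), Creg1 (0.127) and Emb (0.13). The lysosomal hydrolase genes among these are Arsa, Hexa, Scpep1 and Dpp7, and C1qa also stands in the microglial list. The members' own root mean square deviations, for scale, ran from 0.457 for Ctsa to 0.758 for Ctsz.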

How the data were processed

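Each signal value in the deposited table is a gene's read count that the authors had divided by the sample's size factor, given to 2 decimals. TopHat, HTSeq, DESeq and the mouse build mm9 are named, without versions, per the submitters' processing notes; the strand setting is not given in the sources used here. Whole reads were recovered by the value of 1 read, started at each column's smallest value and refined over the whole column (within 1% of 1 in 3 columns), and 100% of the values in all 12 columns came out whole within 0.0061.

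Genes with a value of at least 10 in at least 3 samples (14987) were tested as log2(value + 1), so folds of low genes are understated. The test was limma 3.58.1 (R 4.3.3) with a mean-variance trend on 4 age groups, two-sided, Benjamini-Hochberg adjusted over all tested genes, threshold 0.05. Alternatives were edgeR 4.0.16 and DESeq2 1.42.0 on the reads, other pseudocounts, filters and scalings, a replicate block and leaving out each sample.

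The members and lists were chosen with earlier results of these data known. Named genes are the members, up to 4 per list with the lowest adjusted p of the F test, and 3 nearest patterns per member called by it. Cst3, Atp6v1f and Atp6v1g1 were named after their values were seen. One gene that the rule would name is not reported here.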

Additional observations from a re-analysis of the deposited data

How the results depend on the processing

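Of the 40 values for 10 members and 4 contrasts, no called value changed sign under the 23 alternatives, and the counts of members called higher ranged from 7 to 9 (P75 against P18), 6 to 7 (6 months against P75) and 6 to 8 (24 months against 6 months), and stayed at 9 (24 months against P18). The count of members called lower at 24 months against P18, 1 (Ctsk), became 0 with only the 2 ages in the fit and ranged from 0 to 1 when single samples were left out. At P75 against P18 it ranged from 0 to 1 in that way. With the replicate block 9 members were still called higher over the whole span and 8, 6 and 6 at the steps, where Ctsc was lost at the last. Deviations of samples with the same number at different ages correlated from -0.185 to 0.165 (3 of 18 pairs above 0.1). Those of samples with different numbers correlated from -0.149 to 0.189, so the numbers are not taken as pairs. Scaling to the total moved the median gene by 0.125 at P75 against P18, and no member's direction with it. The labels name no batch, and none could be examined. The lysosomal lists and the 20 microglial markers were rerun over the whole span under 3 scalings, edgeR, DESeq2 and without P18 replicate 3. That sample was chosen after seeing the data. The markers of activated microglia were not rerun. Every count of genes called higher was the same, and counts called lower differed by at most 1 except for the proton pump (4 with scaling to the total).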
